A study of Mus musculus with 2 samples.

Results

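Matrix proteases and their inhibitors were followed through 10 genes, the metalloproteinases Mmp12, Mmp13, Mmp14 and Mmp19, the tissue inhibitors Timp1, Timp2 and Timp3, and the membrane proteases Adam8, Adam10 and Adam17. They were taken by gene symbol, with every probe whose RefSeq accession belongs to the gene, and they are 10 of the 20655 genes that could be named on the array. RAW264.7, a macrophage line of male adult BALB/c origin raised from ascites of a tumour that Abelson leukaemia virus had induced, was cultured for 24 h with vehicle control or with the compound IR-61. Each condition had 1 culture on 1 single-colour Agilent array, and both arrays came from 1 scan. With 1 array per condition no test was possible, and every difference below is a description of these 2 arrays.

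Matrix metalloproteinases are zinc enzymes made as inactive precursors, which are secreted or held at the cell surface and cut collagens, elastin and other matrix proteins. Tissue inhibitors of metalloproteinases bind the active site of these enzymes, and some of them also block members of the ADAM family, whose catalytic members release the outer parts of membrane proteins such as the precursor of tumour necrosis factor. Macrophages make enzymes and inhibitors of both kinds, and Mmp12 is known as the elastase of macrophages.

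Values are spot intensities after background subtraction. The IR-61 array was brighter as a whole, with a 75th percentile 1.40-fold above that of the vehicle array, so each log2 difference (IR-61 minus vehicle) was taken after subtracting the 75th percentile of each array. Without this scaling every difference would be 0.49 higher, and small falls turn. On this scale the median over the 16885 genes well above background on both arrays was 0.10, and the interquartile range of these genes reached from −0.15 to 0.34. The error given with each difference is the SD between spots of the same probe. For a difference it was 0.09 for bright probes and 0.23 for probes of moderate signal. It leaves out disagreement between probes of a gene, whose median gap was 0.32 over 4160 genes with several probes measured. Each probe of the 10 genes had 1 spot per array, so its error was taken from other probes of like signal. Signals of different probes do not rank the genes, since probes bind with different strength.

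All 13 probes of the 10 genes were well above background on both arrays and none was saturated, so each gene had a measured difference and no bound. At a limit of 2-fold, 1 of the 10 genes was lower with IR-61 (Mmp19), against 1.39% of all measured genes, and 1 of the 10 was higher (Timp1), against 1.99%. With single genes on each side and values that lie at the limit, these counts say little. The median over the 10 genes was 0.01, with 4 genes below 0 and 6 above, beside 38.8% of all measured genes below 0. Mmp12 was counted below and Timp2 above by the brightest probe, though the second probe of each went the other way. The split was 5 below and 5 above with the mean over the probes of a gene. It was 6 below and 4 above with median scaling, with the percentile over detected probes and with normexp. Normexp is another background correction, taken here on the median signal with an offset of 50. The differences reached from −1.02 for Mmp19 to 1.02 for Timp1.

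**Figure D1:**
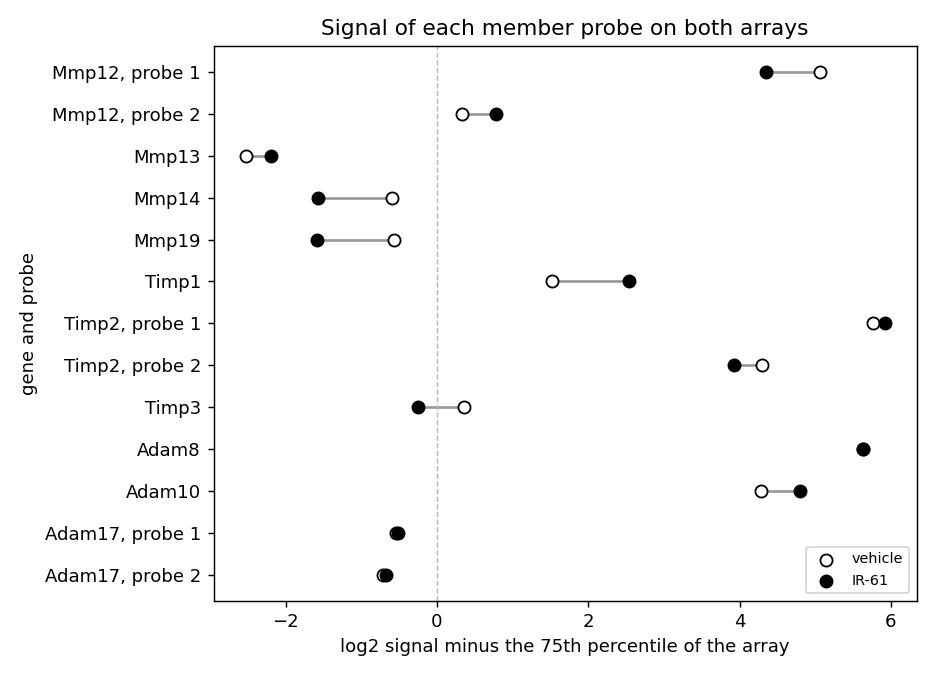
Log2 signal minus the 75th percentile of the array (x axis) for every probe of the 10 genes (y axis), on the vehicle array (open points) and the IR-61 array (filled points), 1 array each. The points of Timp1 lie 1.02 apart with IR-61 to the right, those of Mmp19 lie 1.02 apart with IR-61 to the left, and those of Adam8 coincide; positions of different probes are not comparable.

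Among the metalloproteinases, the 2 with the largest differences were both lower. Mmp19, a secreted enzyme that cuts basement membrane proteins, had a signal of 855 with vehicle and 591 with IR-61. The scaled log2 difference was −1.02 ± 0.23 (SD between spots), or 2.03-fold lower. Its only probe (accession NM_021412) was thus just past the limit. Mmp14, a membrane-anchored collagenase that also activates the precursor of Mmp2, had a signal of 836 with vehicle and 598 with IR-61. The difference was −0.97 ± 0.23, or 1.96-fold lower, just inside the limit. The 2 genes differ by less than the SD between spots, so that a line between them has no meaning. Among the 16885 genes ordered from the largest fall, Mmp19 stood at place 228 and Mmp14 at place 256.

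Mmp12 had 2 probes of the same accession (NM_008605), and they went opposite ways. The brighter probe read 42386 with vehicle and 35989 with IR-61, a scaled difference of −0.72 ± 0.09. The second read 1592 with vehicle and 3052 with IR-61, a difference of 0.45 ± 0.09. The gap between them was 1.17 on the log2 scale. Over the 4160 genes with several probes measured on both arrays, the median gap between the brightest and the second probe was 0.32 and its 95th percentile was 1.01. The gap at Mmp12 was wider than the spread between spots, so no single direction can be given for the gene, and averaging its probes left a difference of −0.14. Why the probes differ was not tested.

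Mmp13, a collagenase of macrophages and bone cells, had a signal of 219 with vehicle and 388 with IR-61. Its difference was 0.34 ± 0.23, which lies at the upper edge of the interquartile range of all genes. With normexp it was 0.20.

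The inhibitors did not move together. Timp1, which inhibits most secreted metalloproteinases, had a signal of 3621 with vehicle and 10280 with IR-61, which is 2.84-fold before scaling and the largest such ratio of the 13 probes. The scaled difference was 1.02 ± 0.09, or 2.02-fold higher, at place 318 from the largest rise of 16885 genes. Timp3, which is held in the matrix and inhibits Adam17 as well as metalloproteinases, had a signal of 1618 with vehicle and 1491 with IR-61. Its difference was −0.61 ± 0.09, or 1.52-fold lower, at place 889 from the largest fall. Timp1 and Timp3 therefore lay on opposite sides of 0.

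Timp2, which takes part in the activation of the Mmp2 precursor by Mmp14, had 2 bright probes of 1 accession (NM_011594). The brighter read 68572 with vehicle and 106966 with IR-61, a difference of 0.15 ± 0.09. The other read 24894 with vehicle and 26954 with IR-61, a difference of −0.37 ± 0.09. The probes disagreed in sign, with a gap of 0.53, so a direction for Timp2 cannot be given either.

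Of the membrane proteases, Adam8 and Adam17 differed little and Adam10 was higher. Adam8, a protease of activated myeloid cells, had a signal of 62733 with vehicle and 88098 with IR-61, which is 1.40-fold before scaling, as for the array as a whole, and a scaled difference of 0.00 ± 0.09. Adam17, the main releasing enzyme of tumour necrosis factor, had 2 probes of 1 accession (NM_009615). The first read 871 with vehicle and 1237 with IR-61, a difference of 0.02 ± 0.19. The second read 768 with vehicle and 1112 with IR-61, a difference of 0.05 ± 0.19. The probes of Adam17 thus read alike, and both differences were within the SD between spots. Adam10, which cuts Notch receptors and many other surface proteins, had a signal of 24680 with vehicle and 49448 with IR-61. Its difference was 0.51 ± 0.09, or 1.43-fold higher, outside the interquartile range of all genes and inside the 2-fold limit, which it passed only without scaling. Of the 10 genes, Mmp14, Mmp19 and Timp3 were lower and Mmp13, Timp1 and Adam10 higher in all 10 ways of processing the arrays. The gene value of Mmp12 was also lower in all 10, from −0.81 to −0.14, though its second probe was higher, while the sign of Adam8, Adam17 and Timp2 depended on the processing. All these ways reuse the same 2 arrays, and some hardly change a gene with a single probe, so a kept sign is no replication.

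**Figure D2:**
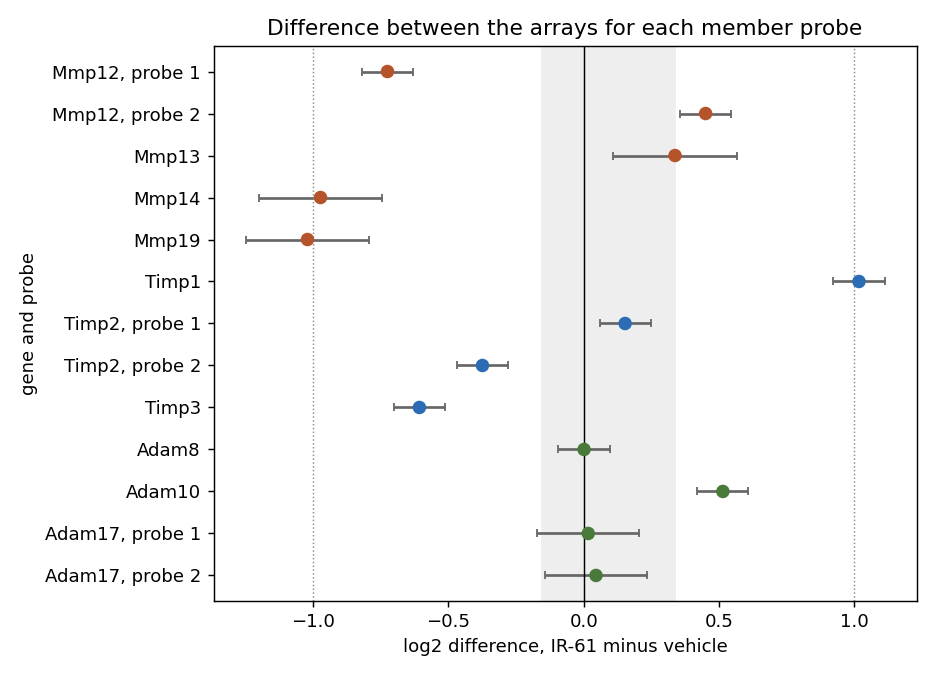
Log2 difference (IR-61 minus vehicle, x axis) for every probe of the 10 genes (y axis), metalloproteinases in orange, inhibitors in blue and ADAM proteases in green; bars are the SD between spots of a difference, dotted lines mark 2-fold and the grey band is the interquartile range of 16885 genes. Mmp14 and Mmp19 lie beside the lower line and Timp1 beside the upper one, and the probes of Mmp12 and of Timp2 lie on opposite sides of 0.

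Other genes of the same families were read from lists. The shares to set beside the counts of every list are those over all measured genes, 1.39% lower and 1.99% higher by 2-fold. Of 19 other matrix metalloproteinases 18 were found, 11 were measured on both arrays, and none was past 2-fold in either direction. Their median was 0.27, against 0.10 over all genes, but it was 0.12 with quantile normalization and −0.04 with normexp, where the median of all genes was −0.03. Mmp8, the collagenase of neutrophils, had the largest rise, with a signal of 1017 with vehicle and 2352 with IR-61 and a difference of 0.72 ± 0.19. Mmp23 had the largest fall at −0.32, with 113 and 128, and its sign turned without scaling. Mmp2, which Mmp14 activates, read 12.8 with vehicle, where it was not well above background, and 32.6 with IR-61. The bound of its rise was 1.82-fold, or 0.86 ± 0.46 on the log2 scale, from a dim probe. Mmp2 was measured on 1 array only, so that this bound is weak. On neither array were Mmp1b, Mmp15, Mmp16, Mmp20, Mmp21 and Mmp25 well above background.

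Mmp12 and Mmp13 belong to a row of 10 neighbouring metalloproteinase genes on chromosome 9, with Mmp13 at one end beside Mmp12 and Mmp7 at the other. Of the 10, 7 were measured on both arrays, and their median was 0.33, which was 0.19 with quantile normalization, 0.18 with loess and 0.04 with normexp. The brighter probe of Mmp12 gave the largest fall of the row and Mmp8 the largest rise. Mmp13, Mmp10 and Mmp7 read 0.34 ± 0.23, 0.34 ± 0.23 and 0.28 ± 0.23, and Mmp3 read −0.02 ± 0.23. Mmp1a, whose value was the median, read 0.33 ± 0.46 from a dim probe, at 17.6 with vehicle and 31.1 with IR-61. The neighbours Mmp12 and Mmp13 therefore differed in sign by the brighter Mmp12 probe and had the same sign by the other.

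Of 9 other genes listed as metalloproteinase inhibitors 7 were measured on both arrays, none past 2-fold. The list also holds Pcolce, an enhancer of a procollagen protease, whose value of 0.19 was the median. The median of the list was 0.11 with quantile normalization and turned to −0.11 with normexp. Timp4, the remaining tissue inhibitor, read 40.1 with vehicle and 94.0 with IR-61, a difference of 0.74 ± 0.38 from a dim probe, which was 0.22 under the setting that gave its lowest value. Tfpi2, a serine protease inhibitor, had the largest fall at −0.56 ± 0.46, also from a dim probe. Among 7 other catalytic ADAM proteases 5 were measured, none past 2-fold, with a median of 0.36, from −0.11 for Adam15 to 0.45 for Adam19, and the sign of Adam15 turned without scaling. Of 3 ADAM genes without a complete catalytic site, Adam22 was higher, at 71.8 with vehicle and 219 with IR-61, a difference of 1.12 ± 0.23. Its value was 0.55 with normexp, so that it passes 2-fold under some settings only. A second probe of Adam22, at 8.42 and 18.8, was well above background with IR-61 only and gave a bound of 0.07. Adam11 had the smallest difference of the 3, at 0.25 ± 0.19. Of 19 ADAMTS proteases, which are secreted, 15 were measured, and Adamts5, which cuts aggrecan, was past 2-fold at 1.24 ± 0.46, with 16.2 and 53.4. With normexp its value was 0.12. The largest fall of that list was Adamts7 at −0.45, which turned without scaling. The median was 0.16, and it turned to −0.06 with quantile normalization, loess and the deposited log2 values and to −0.17 with normexp.

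Adam10 and Adam17 need partner proteins for their transport to the cell surface, inactive rhomboids and the Frmd8 protein that binds them for Adam17, and tetraspanins for Adam10. All 9 listed partners were measured on both arrays, 6 below 0 and 3 above, and none was past 2-fold by its brightest probe. Their median was −0.23, against 0.10 over all genes, and it was 0.26 without scaling. Tspan33 was lowest, with 102 and 87.0 and a difference of −0.72 ± 0.23. Tspan15 was highest at 0.43 ± 0.38, and with normexp its sign turned.

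Of 24 surface proteins that Adam10 or Adam17 release, 22 were measured on both arrays. Of these, 2 were lower by 2-fold or more, against 1.39% of all measured genes, and none was higher, against 1.99%. The median of the 22 was −0.06, which was 0.43 without scaling. Tnf, the cytokine precursor cut by Adam17, had a signal of 1873 with vehicle and 278 with IR-61, a difference of −3.24 ± 0.16, or 9.46-fold lower. Icam1, an adhesion molecule, read 514 with vehicle and 113 with IR-61, a difference of −2.67 ± 0.23, or 6.36-fold lower. Both were far outside the range of the 10 proteases and inhibitors. The largest rise was that of Ereg, an epidermal growth factor family ligand, at 0.45 ± 0.23. The 2 probes of Adam17 read 0.02 and 0.05 beside the difference of −3.24 at Tnf.

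Proprotein convertases, which remove the propeptide of several metalloproteinases and ADAM proteases, and the plasminogen system were read through 12 genes, of which 9 were measured. Pcsk6 alone was past 2-fold, with 34.8 and 109 and a difference of 1.15 ± 0.38, which was 0.35 with normexp. Plau, the urokinase that turns plasminogen into plasmin, was lowest, with a signal of 816 with vehicle and 667 with IR-61 and a difference of −0.78 ± 0.23. The median of the 9 was −0.05, and it was 0.44 without scaling. Cysteine cathepsins and cystatins had 12 of 14 genes measured, none past 2-fold, with a median of 0.00 (0.49 without scaling), from −0.59 for Ctsz to 0.59 for Ctsw. Serine protease inhibitors of myeloid cells had 9 of 11 measured, none past 2-fold, with a median of 0.15 (−0.01 with normexp), from −0.36 for Serpinb1a, which turned without scaling, to 0.66 for Serpinh1, a chaperone of collagen. Matrix proteins and receptors were measured in all 19 genes, with a median of 0.09 (−0.01 with normexp). Mrc2, a receptor for the uptake of collagen, was past 2-fold at −1.08 ± 0.46 by a dim probe, but not with normexp (−0.60), without scaling (−0.59) or by the mean of its probes (−0.34), and its second probe read 0.40. Col1a1, a chain of type I collagen, was highest at 0.62 ± 0.09.

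**Figure D3:**
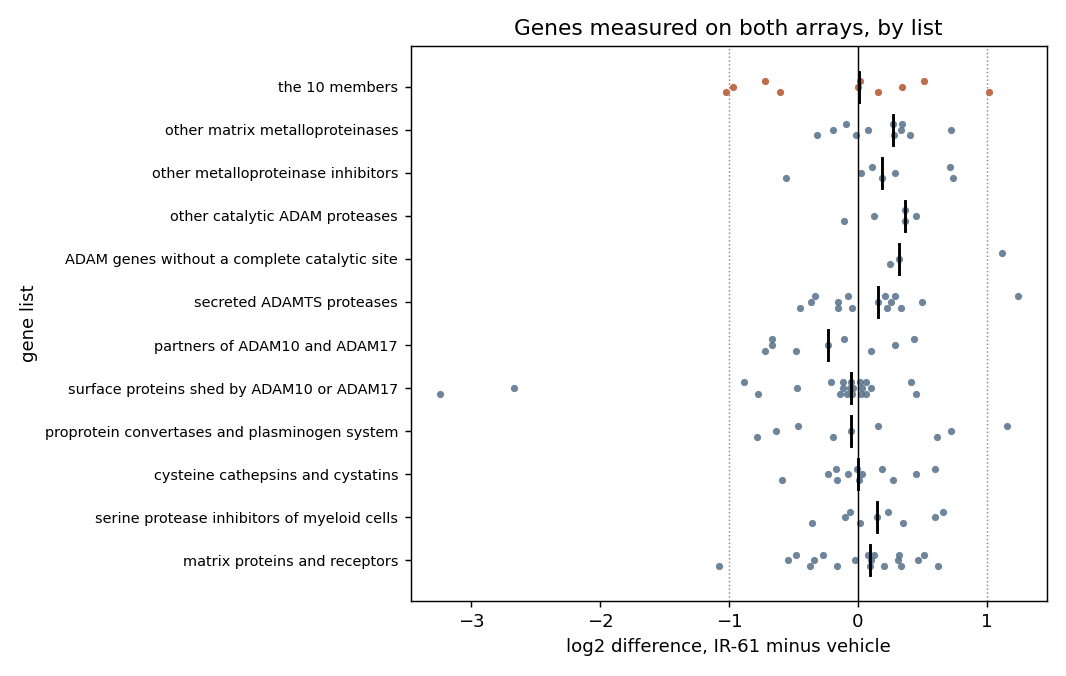
Log2 difference (IR-61 minus vehicle, x axis) of each gene measured on both arrays, by gene list (y axis); bars are list medians and dotted lines mark 2-fold. The 10 members (orange) reach from −1.02 to 1.02 around a median of 0.01, and only Tnf and Icam1, among the released surface proteins, lie below −2.

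The label of the line was set against markers. Summed signals and the brightest probe of each list join probes that bind with different strength, so they do not compare genes or cell types. Of 11 macrophage markers 10 were found and all 10 were measured on both arrays, with a median of −0.05, from −0.98 for Cd14 to 1.03 for Adgre1, and a summed signal of 208936 with vehicle and 386329 with IR-61, the brightest probe being that of Csf1r with vehicle and that of Adgre1 with IR-61. All 7 fibroblast markers (Col1a1, Col1a2, Col3a1, Pdgfra, Pdgfrb, Dcn and Lum) were also well above background on both arrays, none of them at 0. Their summed signal was 65022 with vehicle and 110698 with IR-61, and Col1a1 was the brightest, with 27148 and 58670. Dcn read 16543 with vehicle and 21737 with IR-61, and Col3a1 read 5152 and 5697. Pdgfra read 860 and 1515, Pdgfrb 153 and 284, and Lum 139 and 219. Of all probes, 77.6% with vehicle and 81.2% with IR-61 were well above background. The median difference of the 7 fibroblast markers was 0.17, from −0.34 for Col3a1 (0.15 without scaling) to 0.62 for Col1a1. Fibroblasts also make Timp1, Timp2, Timp3, Mmp14 and Mmp13, and the part of these genes' signal that goes with the fibroblast markers was not tested. In RNA from a whole culture, fewer cells of a type and less RNA per cell cannot be told apart.

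Of the other marker lists, 6 of 7 osteoclast markers were measured, with a summed signal of 167617 and 244321, a median of −0.02 and the probe of Atp6v0d2 as the brightest with vehicle and that of Acp5 with IR-61, while Calcr was well above background with vehicle only. They ranged from −0.40 for Ocstamp, which turned without scaling, to 0.47 for Dcstamp. All 6 neutrophil markers found were measured, with a summed signal of 12371 and 20656, a median of 0.28 (−0.05 with normexp) and Elane as the brightest, from −0.48 for Cebpe, which turned without scaling, to 0.64 ± 0.38 for Mpo, a dim probe whose lowest value over the settings was 0.05. Of 5 epithelial markers 3 were measured, and neither Epcam nor Cdh1 was well above background. The summed signal of the 5 was 401 and 373, with Krt18 as the brightest, at 218 and 214. All 3 measured were lower, with a median of −0.51, from −0.89 for Krt19 to −0.41 for Krt8, which turned without scaling. All 5 lymphocyte markers were measured, with a summed signal of 1286 and 1469, and Cd3e as the brightest. Their median was −0.09, from −1.46 for Ms4a1 to 0.14 for Cd79a, which turned with loess and normexp. The 12 housekeeping genes had a median of −0.13, from −0.48 for Ywhaz, which turned without scaling, to 0.80 for Hprt. A control gene thus differed by more than most of the 10 proteases and inhibitors.

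RefSeq promoters of 300 bases (assembly GRCm38.p6), which reach past the start of the gene, were found for 9 of the 10 genes, as 10 promoters because Mmp12 has 2 starts. Both strands were searched for TGANTCA, the site of AP-1 factors, and AGGAAG, a site of ETS factors. TGANTCA was in 2 of the 10 promoters, those of Mmp13 and the second start of Mmp12, and in 7.81% of the 32851 promoters of the assembly. AGGAAG was in 7 of the 10, all but those of Timp2, Adam8 and the second start of Mmp12, and in 35.4% of the promoters of the assembly. Timp1 and Mmp14, the genes with a promoter that differed most in opposite directions, both held AGGAAG and neither held TGANTCA. The 250 bases before the start are given for these genes and for both starts of Mmp12, whose probes went opposite ways, with matches to either motif on either strand in capitals. A match is a description of the sequence and no evidence of binding, and which start an Mmp12 probe reads was not analysed here.
Timp1 (chrX:20869916-20870165, plus strand): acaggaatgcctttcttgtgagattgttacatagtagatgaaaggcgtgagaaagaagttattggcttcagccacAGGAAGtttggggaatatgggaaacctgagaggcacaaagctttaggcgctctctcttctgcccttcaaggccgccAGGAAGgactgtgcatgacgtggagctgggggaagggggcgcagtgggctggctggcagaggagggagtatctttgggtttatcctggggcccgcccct
Mmp14 (chr14:54431348-54431597, plus strand): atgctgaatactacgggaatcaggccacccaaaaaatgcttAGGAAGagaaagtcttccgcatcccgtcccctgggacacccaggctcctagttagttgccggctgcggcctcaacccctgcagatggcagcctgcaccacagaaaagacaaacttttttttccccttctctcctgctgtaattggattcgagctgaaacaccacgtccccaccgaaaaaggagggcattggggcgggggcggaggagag
Mmp12, first start (chr9:7344147-7344396, plus strand): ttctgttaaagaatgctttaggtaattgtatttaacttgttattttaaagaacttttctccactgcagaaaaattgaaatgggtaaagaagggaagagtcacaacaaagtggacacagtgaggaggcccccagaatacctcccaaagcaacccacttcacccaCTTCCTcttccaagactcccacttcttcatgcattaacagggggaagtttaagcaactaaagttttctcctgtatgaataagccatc
Mmp12, second start (chr9:7347124-7347373, plus strand): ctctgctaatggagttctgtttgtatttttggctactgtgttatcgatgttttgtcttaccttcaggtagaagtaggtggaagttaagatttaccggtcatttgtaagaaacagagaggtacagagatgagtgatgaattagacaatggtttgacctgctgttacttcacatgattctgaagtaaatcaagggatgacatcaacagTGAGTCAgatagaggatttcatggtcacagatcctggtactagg
The matches of Timp1 began 175 and 99 bases before the start, with 1 more at base 41 after it, that of Mmp14 began 209 bases before it, and those of Mmp12 began 87 bases before the first start and 44 bases before the second.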

How the data were processed

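The authors deposited the intensity of each spot per array, background-subtracted and detrended by Agilent Feature Extraction (version 11.0.1.1 per the file headers, 11.0.0.1 in the submitters' processing notes), with no scaling between arrays. A second table of the authors, with log2 values for the probes, served as an alternative. Both its columns had a median of 7.15 and the same quartiles, and followed their own array with Pearson r of 0.9995 (vehicle) and 0.9988 (IR-61) across probes; how they were scaled is not given in the sources used here.

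After control and outlier-flagged spots had been dropped, each probe took the mean log2 intensity of its spots, less the 75th percentile of its array (10.30 vehicle, 10.79 IR-61). Of 39419 probes, 27224 were named through RefSeq accessions of assembly GRCm38.p6, which served for names, neighbours and promoters only, because the array design gives mm9. A gene took its brightest unsaturated probe. Well above background were 77.6% (vehicle) and 81.2% (IR-61) of probes, and precision is limited by the number of arrays. A gene well above background on 1 array has a bound, taken against the higher of its own dim signal and the lowest signal well above background there. The SD between spots came from probes printed 5 or more times, below a log2 signal of 6, from 6 to 10, and above, and covers noise within an array only. Below 6 it was first taken from probes with every spot well above background (0.25 vehicle, 0.24 IR-61) and then from probes with most spots so (0.35 and 0.30), which was chosen after seeing the data and changes no error of the 10 genes.

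Genes named are the 10 members, and of each list those past 2-fold and the largest rise and fall; others were added after their values were seen, and 1 gene was left out of the lists and is not reported here. The members and lists were chosen with earlier results of these data known. Differences and counts were recomputed with median, detected-probe percentile, quantile, loess and no scaling, the deposited log2 values, normexp with an offset of 50 on the median signal, the mean over probes, outlier spots kept, a 3-fold limit and other filters on dim probes. Before normexp, 4 spots with IR-61 whose local background exceeded their signal took the array's median background, also chosen after seeing the data. Steps were tested on simulated data. Python 3.11.15, numpy 2.4.6, pandas 2.3.3, scipy 1.17.1, statsmodels 0.14.6, matplotlib 3.10.9, R 4.3.3 and limma 3.58.1 were used.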

Additional observations from a re-analysis of the deposited data

How the results depend on the processing

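The 2-fold counts depended on the scaling because Mmp14, Mmp19 and Timp1 lie at the limit. Lower genes among the 10 numbered 2 with median scaling and with the 75th percentile over detected probes, and 0 with quantile normalization, with no scaling, with the deposited log2 values, with normexp and at 3-fold. Higher genes numbered 0 with median scaling, the detected-probe percentile, quantile normalization, loess, the deposited log2 values and at 3-fold, and 2 (Timp1 and Adam10) with no scaling. Under scaled settings Timp1 lay between 0.93 and 1.06, Mmp19 between −1.10 and −0.97 and Mmp14 between −1.05 and −0.90. Without scaling the median of the 10 was 0.50 and that of all genes 0.59, against 0.01 and 0.10; the other settings put the median of all genes between −0.03 and 0.10. Of the 90 differences of single genes under alternatives 76 moved by no more than the SD between spots. Timp2, at 0.15 in the main setting, was −0.11 by the mean over its probes and 0.35 with normexp.

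Over the whole array 235 genes were lower and 336 higher by 2-fold. The counts were 72 and 2156 without scaling, 149 and 124 with normexp, 64 and 50 at 3-fold, and 440 and 921 with no filter on dim probes; they were 184 and 182 with a log2 signal of 6 or more on both arrays. Lower genes were 41.2% of those past 2-fold, 54.2% with median scaling, 52.1% with quantile normalization, 52.2% with loess, 51.4% with the deposited values, 54.6% with normexp and 3.23% without scaling. The cause of these shifts was not tested. Signal over background limits Timp4, Adamts5, Pcsk6 and Mrc2, which are dim. No paired analysis was possible because there was a single array for vehicle and for IR-61.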

Other observations

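Of the lymphocyte markers, Ms4a1 was lower by more than 2-fold, with a signal of 353 with vehicle and 180 with IR-61 and a log2 difference of −1.46 ± 0.23 (SD between spots), which was −0.97 without scaling. Adgre1, which encodes an adhesion receptor of macrophages, was higher by both of its probes, at 1.03 ± 0.09 and 0.85 ± 0.09, while Cd14, a co-receptor for lipopolysaccharide, was lower at −0.98 ± 0.09. As gene values, each kept its sign under all 10 ways of processing.

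Tspan5, a tetraspanin partner of Adam10, read −0.48 ± 0.19 by its brightest probe and −1.06 ± 0.23 by its second. Vcan, from the list of matrix proteins and receptors, read 0.08 ± 0.09 by its brightest probe and 1.09 ± 0.23 by its second. Tspan5 and Vcan lie outside the rule for named genes and were named after their values were seen.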
